A study of Mus musculus with 6 samples.

Results

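The Spalt-like genes *Sall1*, *Sall2*, *Sall3* and *Sall4* were examined for OCT4 and NANOG binding in mouse ESCs at 3 levels of Esrrb. All regions listed as bound within 50 kb of the 4 gene bodies were taken, which gave 27 of the 23767 regions that the 6 lists of the series hold together. *Sall1* (ENSMUSG00000031665) lies on chromosome 8 from 91551147 to 91568061, *Sall2* (ENSMUSG00000049532) on chromosome 14 from 52930847 to 52948437, *Sall3* (ENSMUSG00000024565) on chromosome 18 from 81163115 to 81183317 and *Sall4* (ENSMUSG00000027547) on chromosome 2 from 168573832 to 168593443, all on the minus strand of mm9. Of the 27 regions, 14 belonged to *Sall1*, 1 to *Sall2*, 3 to *Sall3* and 9 to *Sall4*, and no region was shared between genes.

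The cells were E14Tg2a ESCs (the line Esrrb-2a-GFPd-IBIH, or E-GFPd1) grown in LIF/FCS, in which a 2a-linked destabilised GFP follows the *Esrrb* open reading frame at both alleles. Fixed cells were sorted by GFP, with the brightest 10% taken as Esrrb-GFP high, the 15% bordering the negative cells as Esrrb-GFP medium, and cells without GFP as Esrrb-GFP negative, a fraction that 1 label field also calls Esrrb-low. OCT4 and NANOG were each profiled by ChIP-Seq in the 3 fractions with 1 library per factor and fraction, made from 3 pooled ChIPs, so that no spread between replicates exists and no test between fractions was made. The lists give positions and no signal or read count, so the depth is unknown, and a region counts as bound in a fraction when that fraction's list holds it. By the study's rule a peak was lost where less than 50% of its highest signal remained, so a region missing from a list need not have been free of the factor. No expression values were used here, and the identity of the cells was not checked against marker genes. The OCT4 lists held 12449, 14464 and 10369 regions in high, medium and negative cells and the NANOG lists 9425, 4729 and 286.

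SALL proteins are zinc finger transcription factors named after the spalt gene of the fly. They carry a conserved N-terminal motif that recruits the NuRD complex, which couples chromatin remodelling to histone deacetylation. In ESCs, SALL4 and SALL1 are found in complexes with OCT4, NANOG and SOX2, and SALL4 is needed to keep ESCs from differentiating. *Sall3* is the closest relative of *Sall1* and has roles in limb and nerve development, and *Sall2* is the most divergent member. OCT4 recognises the octamer and, together with SOX2, a composite Oct-Sox element, and NANOG is a homeodomain protein.

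The sequences that carry the main patterns are the regions bound by OCT4 in all 3 fractions near the starts of *Sall2* and *Sall4*, a Class II region (both factors in high cells, OCT4 alone in negative cells) and a Class I region (both factors in high cells, neither in negative cells) of *Sall1*, and the *Sall1* region where NANOG was listed in all fractions. Each line gives 100 bp either side of the region's centre, read 5′ to 3′ on the plus strand of mm9, so that all 4 genes run from right to left. Capitals mark matches to the octamer ATGCAAAT with up to 1 mismatch or to the Oct-Sox element with up to 2 mismatches, on either strand.
*Sall2* upstream, OCT4 in all fractions, chr14:52950821-52951021: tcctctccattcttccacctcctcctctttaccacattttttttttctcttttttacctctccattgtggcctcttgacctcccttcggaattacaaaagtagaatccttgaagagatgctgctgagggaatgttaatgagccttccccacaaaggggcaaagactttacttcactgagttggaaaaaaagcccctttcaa
*Sall4* intron, Class II, chr2:168590121-168590321: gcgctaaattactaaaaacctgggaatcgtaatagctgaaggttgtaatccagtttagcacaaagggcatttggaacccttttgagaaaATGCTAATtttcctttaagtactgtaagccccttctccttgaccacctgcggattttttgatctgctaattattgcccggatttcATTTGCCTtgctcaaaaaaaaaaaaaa
*Sall1* downstream, Class II, chr8:91527501-91527701: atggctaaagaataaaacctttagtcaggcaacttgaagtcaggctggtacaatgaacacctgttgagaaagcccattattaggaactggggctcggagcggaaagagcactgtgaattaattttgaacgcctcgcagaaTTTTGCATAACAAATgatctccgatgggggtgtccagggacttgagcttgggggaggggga
*Sall1* upstream, Class I, chr8:91596971-91597171: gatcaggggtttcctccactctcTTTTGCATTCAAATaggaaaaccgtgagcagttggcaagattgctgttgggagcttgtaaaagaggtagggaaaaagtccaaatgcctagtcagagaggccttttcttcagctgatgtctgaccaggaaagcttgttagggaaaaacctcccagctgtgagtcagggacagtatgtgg
*Sall1* upstream, NANOG in all fractions, chr8:91569231-91569431: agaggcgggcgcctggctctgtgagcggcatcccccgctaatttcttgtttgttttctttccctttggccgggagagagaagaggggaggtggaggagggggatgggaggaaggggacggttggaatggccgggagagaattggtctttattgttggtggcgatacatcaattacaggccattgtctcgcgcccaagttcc

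OCT4 binding in every sorted fraction was found close to the start of each *Sall* gene. In *Sall1* this region lay 3.52 kb downstream of the start, in the second intron of the only annotated transcript. The *Sall2* region was the only one of that gene and lay 2.48 kb upstream of its start (chr14:52950892-52950951). In *Sall4* the region lay 3.22 kb downstream of the start, in the first intron of 6 of its 7 annotated transcripts (chr2:168590132-168590311). The *Sall3* region lay 3.81 kb downstream, in the first intron. Of all protein-coding genes in the annotation, 4.03% had an OCT4 region of all 3 fractions within 5 kb of their start, and the median distance to the nearest such region was 140 kb. The limit of 5 kb was set after these positions had been seen. All 4 genes were also counted at 10 kb, where 6.83% of protein-coding genes had such a region, but none of the 4 at 2 kb. With the narrower regions of each list left out, 2 of the 4 genes remained, against 2.41% of genes. These were *Sall3* and *Sall4*, whose regions were 120 and 180 bp wide, whereas those of *Sall1* and *Sall2* were 60 bp wide.

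**Figure D1:**
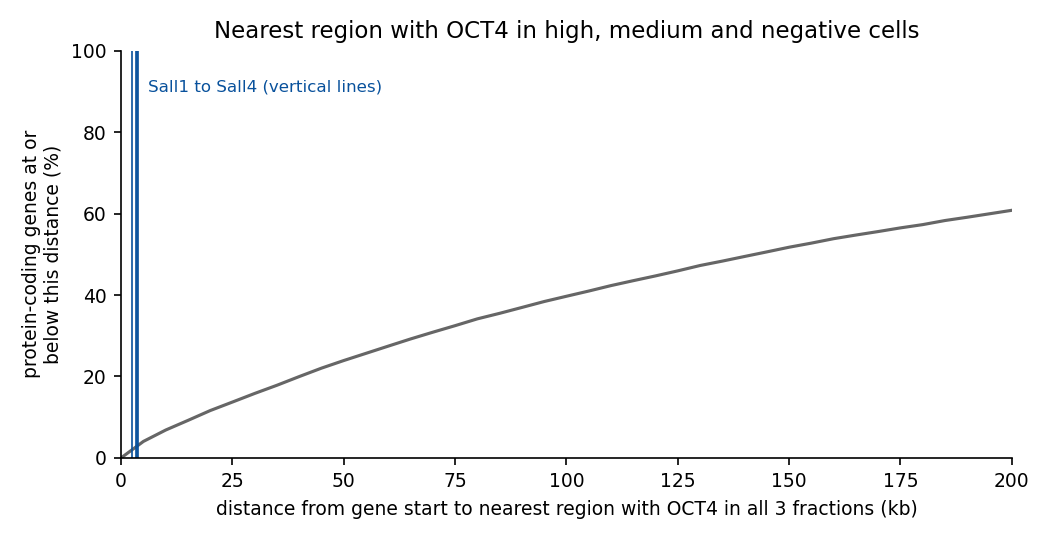
The curve gives the share of protein-coding genes (%) whose start lies at or below a given distance (kb) from the nearest region with OCT4 in all 3 fractions, and vertical lines mark the 4 *Sall* genes. The lines lie between 2.48 and 3.81 kb, where the curve is below 4.03%.

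An exact octamer was found at 1 of the 27 regions, which belonged to *Sall1*. The *Sall4* intronic region held ATGCTAAT, 1 mismatch from the octamer, beginning 11 bp before its centre, and a further match with 1 mismatch at 168590295. The *Sall2* region and the *Sall3* region near the start held no octamer even with 1 mismatch. An exact octamer occurred at 7.88% of all regions of the series and a match with up to 1 mismatch at 39.0%, against 10 of the 27 regions of the family.

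*Sall1* was among the most densely bound genes of the series. The 14 regions within 50 kb of it compare with a median of 1 over all protein-coding genes, and 0.304% of protein-coding genes had as many or more. Close neighbours were counted separately, and 8 of the 14 had another region within 500 bp. The rank with such regions joined is not given here. *Sall4*, with 9 regions, was matched or exceeded by 1.91% of genes. *Sall3*, with 3, was matched or exceeded by 25.8% of genes and *Sall2*, with 1, by 64.8%. Per 100 kb of the gene with its flanks, *Sall1* had 12.0 regions, *Sall4* 7.52, *Sall3* 2.50 and *Sall2* 0.850, against 0.895 over the chromosomes that hold regions. No other protein-coding gene is annotated within 50 kb of *Sall1*. The window of *Sall2* overlaps 5 other protein-coding genes (*Mettl3*, *Rab2b*, *Tox4*, *Olfr1512* and *Olfr1513*), that of *Sall3* overlaps *Atp9b*, and that of *Sall4* overlaps *Atp9a*.

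**Figure D2:**
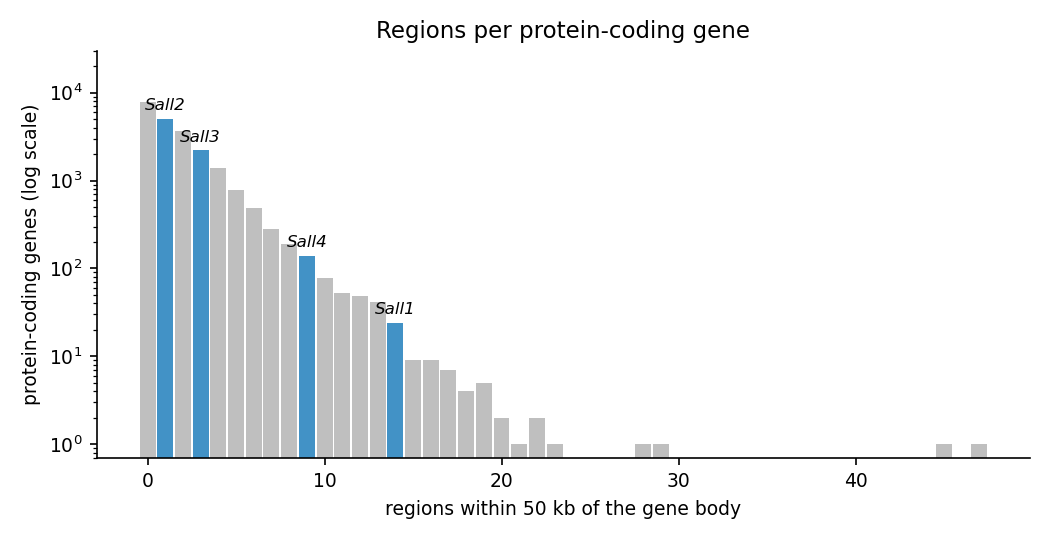
Bars give the number of protein-coding genes (log scale) by the number of regions within 50 kb of the gene body, and the bars that hold the *Sall* genes are in blue. *Sall1* at 14 and *Sall4* at 9 regions lie in the upper tail, and *Sall2* at 1 and *Sall3* at 3 lie among the bulk of genes.

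The counts of OCT4 and NANOG regions followed different courses over the fractions at *Sall1*, *Sall3* and *Sall4*, and *Sall2* had no NANOG region. At *Sall1*, OCT4 regions numbered 9, 11 and 5 in the high, medium and negative fractions, and NANOG regions 7, 4 and 1. At *Sall4*, OCT4 regions numbered 2, 7 and 4 and NANOG regions 3, 1 and 0 in the same order. At *Sall3*, OCT4 was bound at 1 region in every fraction, and NANOG at 3 regions in high cells and at 0 in medium and negative cells. At *Sall2*, OCT4 was bound at its 1 region in every fraction and NANOG at none. OCT4 regions were thus most numerous in medium cells at *Sall1* and *Sall4*, whereas NANOG regions were most numerous in high cells at *Sall1*, *Sall3* and *Sall4*. The OCT4 list of medium cells and the NANOG list of high cells are also the longest lists of their factor over the genome.

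**Figure D3:**
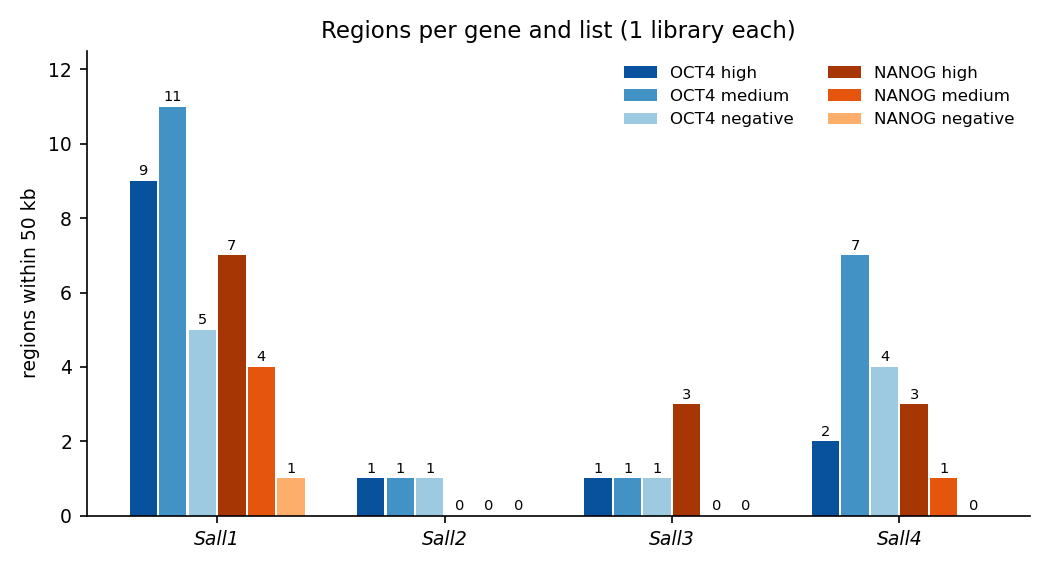
Bars give the number of regions within 50 kb of each gene in each of the 6 lists, with 1 library per bar and no error. *Sall1* falls from 11 OCT4 regions in medium to 5 in negative cells, and *Sall4* has 2 OCT4 regions in high and 7 in medium cells.

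Of the 13 OCT4 regions of high cells near the family, 7 were also bound in negative cells, 53.8% (95% Wilson interval 29.1 to 76.8), against 54.9% of all OCT4 regions of high cells. The kept regions were 4 of 9 at *Sall1*, 1 of 1 at *Sall2*, 1 of 1 at *Sall3* and 1 of 2 at *Sall4*. All 13 were bound in medium cells, an interval of 77.2 to 100%, against 78.7% over the genome. OCT4 was bound in negative but not in high cells at 4 of 11 regions, 36.4% (15.2 to 64.6), against 34.1% over the genome. The intervals reflect only the counting error that so few regions allow. Each of the 3 intervals included the share over the genome.

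**Figure D4:**
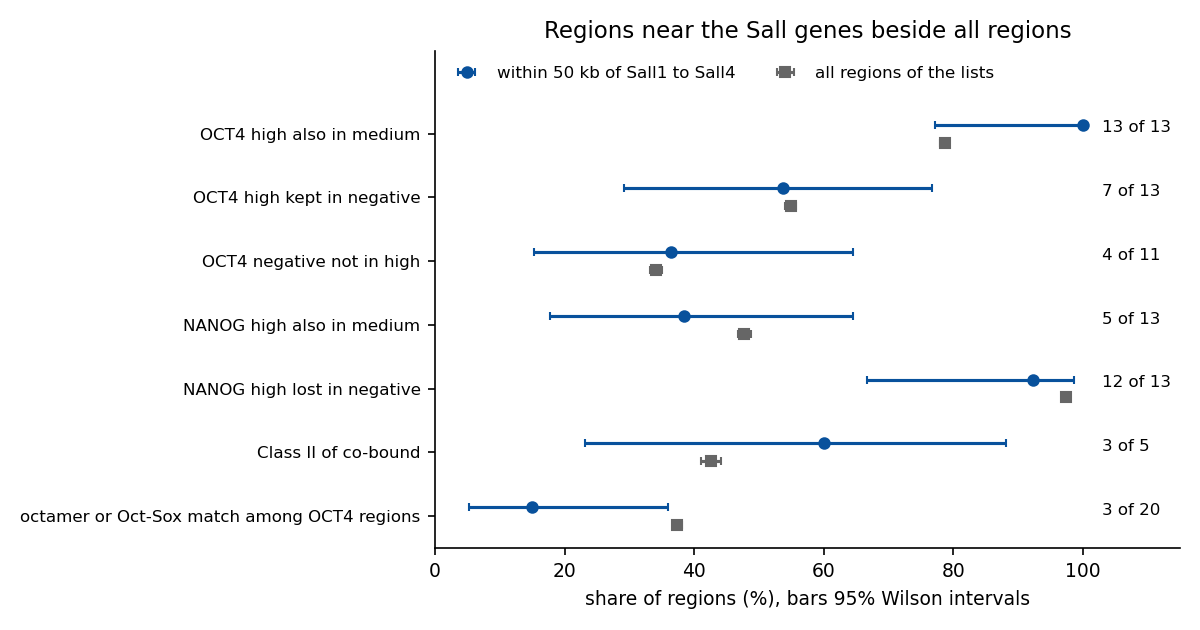
Points give the share of regions (%) within 50 kb of the *Sall* genes (blue circles, with counts at the right) and over all regions of the lists (grey squares), with 95% Wilson intervals as bars. The blue intervals for OCT4 kept in negative cells (29.1 to 76.8) and for NANOG lost (66.7 to 98.6) include the grey points, and that for an octamer or Oct-Sox match (5.24 to 36.0) lies below its grey point of 37.4%.

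At *Sall4*, most OCT4 regions were absent from the list of high cells. This held for 5 of the 7 OCT4 regions of medium cells, 71.4% (95% Wilson interval 35.9 to 91.8), against 32.3% over the genome and 18.2% (5.14 to 47.7) at *Sall1*. The comparison was made after the counts had been seen, and the difference between the genes was not tested. Of the 4 OCT4 regions of negative cells, 3 were not listed in high cells, 75.0% (30.1 to 95.4). That interval includes the 34.1% over the genome. Each of these 3 regions was bound in medium cells as well. They lay 12.33 kb upstream of the start (chr2:168605752-168605791), 9.41 kb upstream (chr2:168602672-168603031) and 50.56 kb downstream of the start, within the body of the neighbouring *Atp9a* (chr2:168542852-168542911). The region 9.41 kb upstream was 360 bp wide, the widest of *Sall4*, and the other 2 were 40 and 60 bp wide. At 2 further regions, 23.66 kb upstream and 32.50 kb downstream within *Atp9a*, OCT4 was bound in medium cells only. Both were 60 bp wide, and the median width over all regions was 80 bp. NANOG was bound at none of these 5 regions in any fraction. *Atp9a* encodes a flippase of the P4 family, and binding within it cannot be assigned to either gene from the lists. Without the 2 regions within *Atp9a*, 2 regions bound in medium and negative cells only remained at *Sall4*. With the narrower regions of each list left out, 1 OCT4 region of negative cells not listed in high cells remained near the whole family.

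At *Sall1*, 1 of the 5 OCT4 regions of negative cells was not listed in high cells, 20.0% (95% Wilson interval 3.62 to 62.4). That interval includes the 34.1% over the genome. This region (chr8:91532852-91532891, 40 bp wide) was bound in medium cells as well. Of the 9 OCT4 regions of high cells at *Sall1*, 5 were lost in negative cells, beside 1 of 2 at *Sall4*. Among protein-coding genes with at least 5 OCT4 regions of high cells within 50 kb, 595 in all, the median share kept in negative cells was 57.1%, against 44.4% (95% Wilson interval 18.9 to 73.3) at *Sall1*. That interval includes the 57.1% and also the 54.9% of all OCT4 regions of high cells. With regions within 500 bp joined, 7 of 11 OCT4 regions of high cells near the family were kept, 63.6%. The joined share of *Sall1* alone is not given here. The regions lost were the intronic region 3.38 kb downstream of the start (chr8:91564652-91564711), a pair just beyond the 3′ end of the gene at 18.75 and 19.19 kb, and the 2 Class I regions. OCT4 was kept at the intronic region at 3.52 kb, at 9.11 kb upstream (chr8:91577112-91577231), at 38.09 kb downstream (chr8:91529872-91530071) and at 40.46 kb downstream of the start. Kept and lost OCT4 regions of *Sall1* lay on both sides of the gene and within it, though the kept and the lost region within it were only 80 bp apart.

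Regions bound by both factors in high cells are grouped by what negative cells retain: Class I regions lose OCT4 and NANOG, and Class II regions lose NANOG and keep OCT4. Near the family, 5 regions were bound by both factors in high cells, of which 3 were Class II and 2 Class I, and over the genome 42.6% of such regions were Class II and 55.3% Class I. *Sall1*, *Sall3* and *Sall4* each had 1 Class II region, and 8.60% of protein-coding genes had at least 1 within 50 kb. At the *Sall1* Class II region (chr8:91527392-91527811, 40.46 kb downstream of the start) and at that of *Sall4* (3.22 kb downstream), OCT4 was bound in the 3 fractions and NANOG in high and medium cells. At the Class II region of *Sall3*, OCT4 was bound in the 3 fractions and NANOG in high cells only. The Class II regions of *Sall3* and *Sall4* are thus the intronic regions near the gene start described above, whereas at *Sall1* the intronic region was not bound by NANOG and the Class II region lay beyond the gene.

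Both Class I regions belonged to *Sall1* and lay more than 20 kb from the gene body. At the upstream one (chr8:91596912-91597231, 29.01 kb upstream of the start, 320 bp wide), high and medium cells had both factors and negative cells neither. At the downstream one (chr8:91516192-91516371, 51.78 kb downstream of the start), OCT4 was listed for high and medium cells, and NANOG for high cells only. Another region 200 bp from the latter (chr8:91515752-91515991) had NANOG in high cells and OCT4 in medium cells only, a pattern that 135 of the 23767 regions share.

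**Figure D5:**
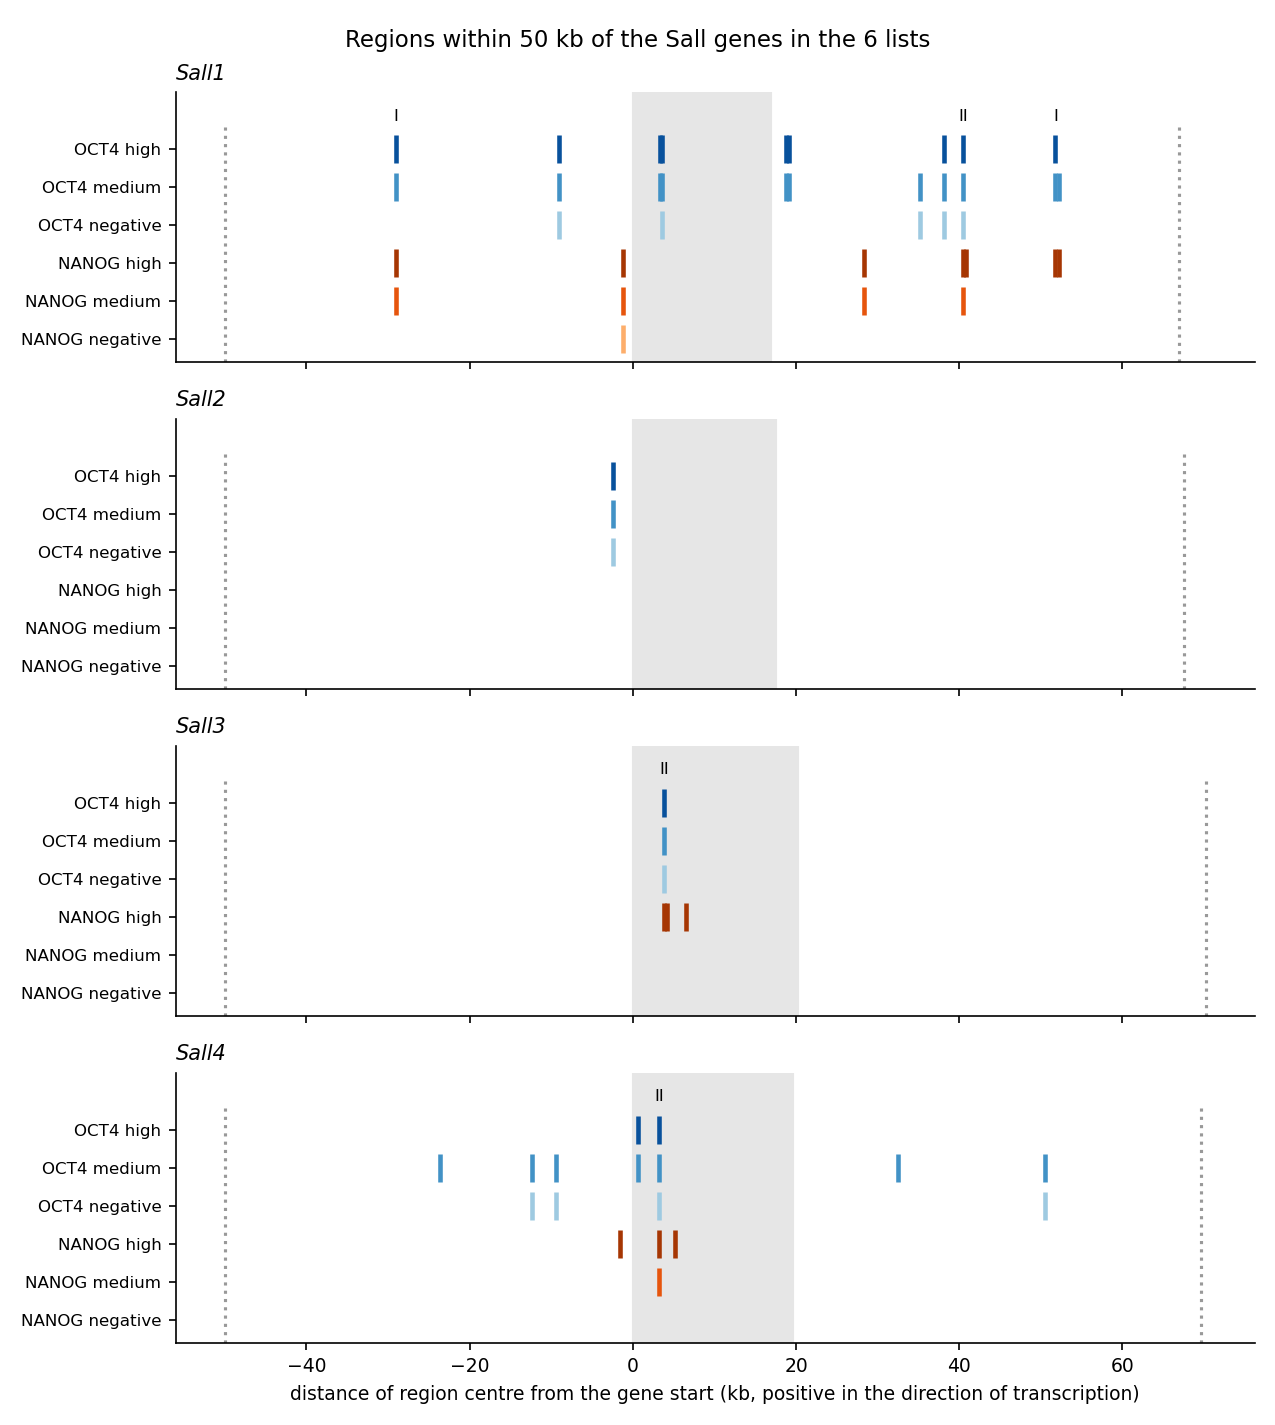
Each panel shows the regions of 1 gene by the distance of their centre from the gene start (kb, positive in the direction of transcription), with a row for each of the 6 lists. Grey marks the gene body, dotted lines the 50 kb limits, and I and II the class of regions bound by both factors in high cells. OCT4 marks occur in all 3 fractions between 2.48 kb upstream and 3.81 kb downstream of every start.

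Of the 13 NANOG regions of high cells near the family, 12 were lost in negative cells, 92.3% (95% Wilson interval 66.7 to 98.6), against 97.5% over the genome, and 5 were bound in medium cells, 38.5% (17.7 to 64.5), against 47.7%. The NANOG regions that were bound in medium cells were 4 at *Sall1* and 1 at *Sall4*. The 3 NANOG regions of *Sall3*, all within its first intron, were bound in high cells only.

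The exception was a region 1.27 kb upstream of the *Sall1* start (chr8:91569312-91569351), where NANOG was bound in all 3 fractions and OCT4 in none. Of the 23767 regions, 82 had this pattern. The NANOG list of negative cells is short, with 286 regions, of which 154 had NANOG in all 3 fractions and 82 this pattern. A NANOG region of negative cells lay within 2 kb of the start of 0.103% of protein-coding genes, 23 in all. The limit of 2 kb was set with earlier results of these data known. With the narrower regions of each list left out, 6 of 6 NANOG regions of high cells near the family were lost, so that this exception was no longer counted. The *Sall1* region was 40 bp wide, as were 22.0% of the NANOG regions of negative cells and 21.0% of all regions. It held no octamer, Oct-Sox, ESRRB or KLF match and no TAATGG, and its window had a GC content of 56.7%, the highest at *Sall1*, against a median of 48.3% over all regions.

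Of the 27 regions of the family, 14 had OCT4 in at least 1 fraction and NANOG in none, against 59.3% of all regions, and 7 had NANOG in at least 1 fraction and OCT4 in none, against 23.0%. OCT4 was bound in all 3 fractions at 7 regions of the family, against 24.1% of all regions. NANOG without OCT4 was found at 3 regions of *Sall1*, 2 of *Sall3* and 2 of *Sall4*. At *Sall4* these lay 1.57 kb upstream of the start (chr2:168594992-168595031) and 5.17 kb downstream, on either side of the Class II region, and both were bound in high cells only. Between them, 0.65 kb downstream of the start, lay an OCT4 region of high and medium cells (chr2:168592712-168592871) that also falls within *Gm14261*, a long non-coding RNA on the opposite strand. The annotated start of *Sall4* is that of a transcript without a reading frame, and this OCT4 region lies just upstream of the starts of the longest coding transcripts.

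Regions at *Sall1* lay in close pairs. Of its 14 regions 8 had another within 500 bp, as did 2 of the 3 at *Sall3* and 0 of the 9 at *Sall4*, and over the genome 18.0% of regions did. In 4 of the 5 pairs the members differed in the lists that held them. The same share over all close pairs of the series is not given here, so this count is not read as particular to these genes. In the *Sall1* intron, 80 bp separated the region where OCT4 was kept in negative cells from the one where it was lost. Both were 60 bp wide. Their distance is below the typical size of the study's chromatin fragments, so the lists cannot show whether they are separate binding events. Beside the *Sall1* Class II region, also 80 bp away, NANOG alone was bound in high cells (chr8:91527272-91527311). Pairs that differ are counted as separate regions here, and joining regions within 500 bp left 22 regions, with the same numbers of Class I and Class II regions.

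An exact octamer or an Oct-Sox match within 100 bp of the centre was found at 3 of the family's 27 regions. This was 11.1% (95% Wilson interval 3.85 to 28.1), against 32.6% of all regions. The Oct-Sox element, searched as the SOX part CNTTGTN followed directly by the OCT part ATGCNAA with up to 2 mismatches outside N on both strands, was found at 2 regions, both of *Sall1*, against 27.7% of all regions. The octamer and the Oct-Sox element can overlap, since the OCT part shares its letters with the octamer. At the *Sall1* Class II region the match lay on the minus strand from 91527642 to 91527655 with 1 mismatch, and reads TTTGCATAACAAAT on the plus strand. Among regions with OCT4 in any fraction, 3 of 20 held an exact octamer or an Oct-Sox match, 15.0% (95% Wilson interval 5.24 to 36.0), against 37.4% over the genome. With up to 3 mismatches in the Oct-Sox element, 15 of the 27 regions had a match of either kind against 64.6% of all regions, and with up to 1 mismatch in the octamer 11 had one against 51.5%.

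For ESRRB, an orphan nuclear receptor, TCAAGGTCA with up to 1 mismatch on both strands was found at 1 region of *Sall1*, an OCT4 region lost in negative cells just beyond the gene (chr8:91548792-91548951), and at 1 region of *Sall4* within *Atp9a*, against 11.2% of all regions. That *Sall1* region held TCCAGGTCA and, 9 bp after it, an Oct-Sox match with 2 mismatches. For KLF factors, GGGCGTGG or GGGTGTGG on both strands was found at 1 region of *Sall1* and 1 of *Sall4*, against 4.19% of all regions. The homeodomain-type sequence TAATGG was found on either strand at 1 region, the *Sall1* Class II region, against 9.55%. Neither Class I region of *Sall1* held an ESRRB or a KLF match. The share over all Class I regions is not given here, and 2 regions are too few to set beside it. A region without a match is without these letters in this window only.

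Genes with similar profiles were sought by the sum, over the 6 lists, of the differences in the number of regions within 50 kb. The gene most like *Sall1* was *Dennd2a*, with a sum of 4 and with 9, 13 and 5 OCT4 regions and 7, 5 and 0 NANOG regions in high, medium and negative cells. For *Sall4* it was *Eif4ebp2*, with a sum of 2, followed by *Cdh1* and *Cuedc1* with a sum of 3. *Fggy*, *Gm16432* and *Itga1* were among 4 genes with the counts of *Sall3*, and 1097 genes had those of *Sall2*, of which *0610007P14Rik*, *0610009D07Rik* and *1110003O08Rik* come first by name.

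Beside the family, genes of the NuRD complex and of ESC transcription factors were counted. All 12 genes of the NuRD complex had a region within 50 kb, with a median of 2 per gene, and 2 of the 12, *Mta3* (2958 bp) and *Rbbp7* (4183 bp), had an OCT4 region of all 3 fractions within 5 kb of their start. Over all protein-coding genes, 64.8% had a region within 50 kb, the median was 1 per gene, and 4.03% had such an OCT4 region within 5 kb. *Mta3*, which encodes an MTA subunit of NuRD, had 17 regions, with OCT4 at 11 in high and 4 in negative cells. Of the 24 distinct OCT4 regions of high cells near NuRD genes, 10 were kept in negative cells, 41.7% (95% Wilson interval 24.5 to 61.2), an interval that includes the 54.9% over the genome. The 9 genes of ESC transcription factors (*Pou5f1*, *Sox2*, *Nanog*, *Esrrb*, *Klf4*, *Tbx3*, *Tcfcp2l1*, *Prdm14* and *Zfp42*) had a median of 8 regions, and 3 of them, *Pou5f1*, *Sox2* and *Nanog*, had an OCT4 region of all 3 fractions within 5 kb of their start. Of 38 OCT4 regions of high cells near these genes, 18 were kept in negative cells, 47.4% (32.5 to 62.7), which also includes the 54.9% over the genome. Of the 21 regions near these genes with both factors in high cells, 12 were Class I and 9 Class II, beside 55.3% and 42.6% over the genome and 2 and 3 of the 5 at the *Sall* genes.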

How the data were processed

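Per the study's methods, the authors processed reads in GeneProf and used SISSRs as peak caller. Peaks that overlapped between datasets were merged, and loss meant that under 50% of the top depth-normalized signal remained. The submitters' processing notes name Bowtie and mm9. The deposited lists hold intervals only, without scores or counts, so depth is unknown, and versions of the authors' tools are not given in the sources used here.

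Samples were grouped by the factor and fraction in their titles. Intervals were converted to positions counted from 1 and joined where they overlapped by 1 bp, and distances were taken to the gene bodies of GENCODE vM1 for mm9 (22380 protein-coding genes). Distances to a gene start are those of a region's centre. Motifs were searched in 201 bp around each centre in the mm9 sequence. The 4 genes, the gene sets and the alternatives were chosen with earlier results of these data known. Regions given one by one are those bound by both factors, those with NANOG in negative cells, those within 2 kb of a start and those nearest to the 50 kb limit. Other regions were named after their values had been seen. Genes of like pattern are at most 3 with the smallest sum of differences, in alphabetical order, among protein-coding genes with at least 1 region and none shared. No test was made, since each condition has 1 library, and shares have 95% Wilson intervals. Alternatives were other distances, the closest gene only, joining within 100 or 500 bp, an overlap of 50%, wider regions only, and other motif windows and mismatch limits. Functions were tested on simulated data, where 16 of 16 known answers were recovered. Software comprised samtools 1.23.1, pysam 0.24.0, matplotlib 3.10.9, numpy 2.4.6, scipy 1.17.1 and Python 3.11.15.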

Additional observations from a re-analysis of the deposited data

How the results depend on the processing

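No paired analysis was possible because there is only 1 library of each kind, and leaving out a replicate was not possible for the same reason. Of the values recomputed under alternatives, 54 stayed close to the reported count or within the interval of the reported share, and 12 moved. Leaving out regions narrower than their list's median left 12 regions near the family, 1 OCT4 region of negative cells not listed in high cells, 100% of 6 NANOG regions lost in negative cells, and 2 genes with an OCT4 region of all 3 fractions within 5 kb of the start. No gene had such a region within 2 kb (0 of 4). The number of Class I regions was 0 at a distance of 20 kb and 1 when 50 kb was taken from the gene start, and that of Class II regions was 2 or 3 under all alternatives run. Regions with an octamer or Oct-Sox match numbered 6 of 34 at 100 kb, against 32.6% of all regions. After joining within 500 bp they numbered 1 of 22, and the share over all joined regions is not given here. In the wider motif windows they numbered 6 of 27, against 41.7% of all regions. With up to 3 mismatches in Oct-Sox they numbered 15 of 27, against 64.6%. With up to 1 mismatch in the octamer they numbered 11 of 27, against 51.5%. The share of OCT4 regions of high cells kept in negative cells stayed within its interval under the alternatives run. The alternatives for distances to gene starts and the octamer mismatch were chosen after seeing the data. The lists hold no signal, so weak binding cannot be told apart from none.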

Other observations

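The region within the 50 kb limit that lay farthest from a gene body was that of *Sall1* with OCT4 in medium and NANOG in high cells, 35156 bp from the 3′ end of the gene. The nearest region outside the limit lay 53401 bp beyond the 3′ end of *Sall4* (chr2:168520172-168520431), with OCT4 in high and medium cells. Between 50 and 100 kb from the 4 genes lay 7 further regions, 3 of *Sall1*, 1 of *Sall3*, 3 of *Sall4* and 0 of *Sall2*. Among them was a Class I region 73796 bp beyond the 3′ end of *Sall1* (chr8:91477212-91477351), with both factors in high and medium cells, and the only region on the 5′ side of *Sall3*, 64775 bp from it, with OCT4 in medium and NANOG in high and medium cells. OCT4 in all 3 fractions was found at 1 of these regions upstream of *Sall4* (chr2:168664412-168664471) and at 1 downstream of *Sall1* (chr8:91469752-91469811).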
